A study of Mus musculus with 9 samples.

Results

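Integrins are receptors for the extracellular matrix, and 10 integrin subunit genes of the 47529 genes listed in any of the deposited count tables are described here in muscle precursors, myotubes and whole muscle. They were chosen by name as subunits known from myoblasts and myofibers: the laminin receptor subunits Itga3, Itga6 and Itga7, the collagen receptor subunit Itga1, the fibronectin and vitronectin receptor subunits Itga5 and Itgav, the related pair Itga4 and Itga9, and the beta subunits Itgb1 and Itgb5. All 10 of 10 were listed in the tables of the cultured cells, which hold 46078 genes, and in those of the muscle, which hold 38293.

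The RNA-Seq series was made to relate changes of the histone mark H3K18la to changes of expression during muscle cell differentiation, and to ask whether lactate can promote that differentiation. All samples came from C57BL/6 mice. Primary myoblasts (MB, 2 libraries) are proliferating muscle precursor cells, grown in a medium with serum and basic FGF on dishes coated with Matrigel, a basement membrane extract rich in laminin. Control MB received the PBS in which the lactate of the treated MB (2 libraries, 10 mM sodium-L-lactate) was dissolved. Myotubes (MT, 2 libraries) are the multinucleated cells obtained from MB on the same coating after 3 days in a medium with little serum, and gastrocnemius muscle (GAS, 3 libraries) was taken whole from female mice of 8 to 12 weeks, so it holds vessels, nerves, connective tissue and blood cells beside myofibers. Libraries of one group are labelled as biological replicates without further detail, and p-values here measure the spread between these libraries.

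An integrin is a heterodimer of an alpha and a beta subunit that spans the cell membrane, binds matrix proteins outside the cell and links them through talin, kindlin and the ILK complex to actin inside it. The alpha subunit largely sets the ligand, and the beta1 subunit encoded by Itgb1 is the partner of every alpha subunit in the set, whereas beta5 encoded by Itgb5 pairs with alpha v. In skeletal muscle, alpha7 beta1 is the main laminin receptor of the fiber and is concentrated at myotendinous and neuromuscular junctions, and loss of alpha7 causes a congenital myopathy. The alpha6 subunit is a laminin receptor of satellite cells and myoblasts, and alpha5 beta1 is the classical fibronectin receptor. The counts are per gene, so splice forms such as beta1A and beta1D, or the A and B tails of alpha6 and alpha7, were not separated.

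The GAS libraries held between 19307793 and 19941574 counted reads, and the cultured libraries between 5198247 and 10839516. Poly(A) RNA was the input for GAS, whereas the Smart-seq2 protocol with 5 ng of RNA was used for the cells, so GAS was set beside the cultured cells and not tested against them. A count of 3, taken as the limit of detection for counting error alone, corresponded to at most 0.155 CPM (counts scaled to the size of the library) in GAS and to between 0.277 and 0.577 CPM in the cultured cells. MT replicate 1 had counts for 28599 genes, against 17965 in MT replicate 2 and 15548 to 17315 in the MB libraries. The gene CT010467.1, which holds ribosomal RNA sequence, took 9.20% and 13.8% of the reads in replicate 1 of control and lactate-treated MB, and at most 0.575% in the other cultured libraries. Myotube markers (4 of 4) and tested myofiber markers (4 of 4) were called higher in MT than in MB, beside 11.0% of all tested genes. Among these markers, Myh4 with no counts and Ckm with 4 and 3 counts in MB could only come out higher. Mymx, with 29 and 9 counts in MB, entered the test only with its MT counts. Of 4 myoblast and satellite cell markers Pax7 was called lower, beside 6.86% of all tested genes. Myf5, Myod1 and Cdh15 were not called, with Cdh15 overlapping between the groups. In GAS, 5 of 5 myofiber markers were counted in every library, and so were 5 of 5 endothelial and 5 of 5 fibroblast markers.

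The comparison of MT with MB asked how the integrin set changed when myoblasts became myotubes. Itga6 and Itga3 fell, Itgb5, Itga1, Itga4 and Itga9 rose, and Itga7, Itgb1, Itga5 and Itgav did not pass the test. A gene was called where edgeR's quasi-likelihood test gave a Benjamini-Hochberg adjusted p under 0.05 with an absolute log2 fold change (log2FC) over 0.5, the adjustment running over all 12921 genes tested. By this rule 4 members were higher and 2 lower of the 10 tested, beside 11.0% of all tested genes called higher and 6.86% called lower. Without MT replicate 1, 3 members were called higher (Itgb5, Itga1 and Itga9) and 1 lower (Itga6), and over all genes 962 and 270. Itga1, Itga4 and Itga9 had at most 2 counts in each MB library and entered the test through their MT counts alone, so they could only come out higher. In bulk samples fewer cells of a type and less RNA per cell cannot be told apart, and this holds for each value below.

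**Figure D1:**
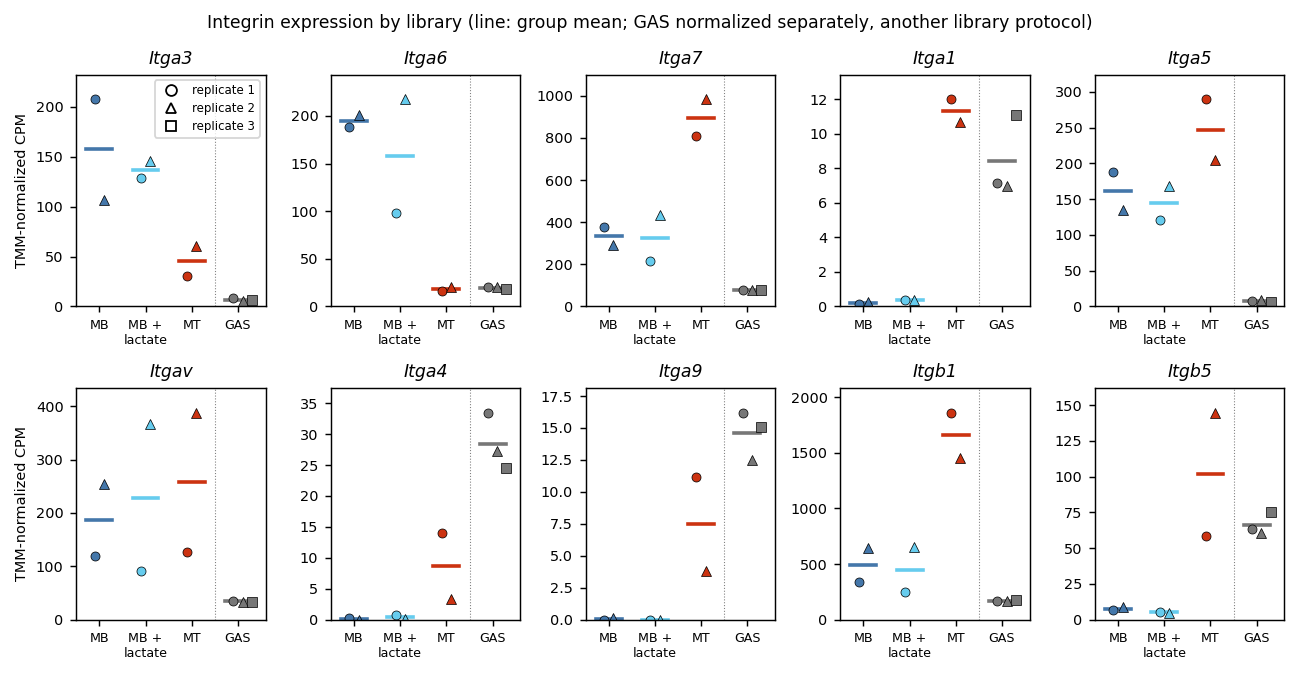
TMM-normalized CPM (linear axes starting at 0, one scale per gene) of the 10 integrin genes in each of the 9 libraries; symbols mark replicates and lines the group means, and GAS, to the right of the dotted line, was normalized separately. Itga6 lay between 16.6 and 20.2 CPM in MT and between 189 and 201 CPM in MB, and Itgb5 between 58.5 and 145 CPM in MT and 6.86 and 8.68 CPM in MB.

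Among the laminin receptor subunits, Itga6 showed the clearest loss. Itga6 (ENSMUSG00000027111, GRCm38, chr2:71745616-71858416, plus strand) had 189 and 201 CPM in the MB libraries and 16.6 and 20.2 CPM in the MT libraries. Every MT value was thus far below every MB value, and the replicates of each group lay close to each other. The log2FC was -3.41 (SE 0.45, adjusted p = 0.000799, edgeR quasi-likelihood test), and the call held without any single library, with log2FC from -3.65 to -3.33.

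Itga3, which encodes the alpha subunit of another laminin receptor and lies on chromosome 11 (95044474 to 95076801, minus strand), had 208 and 107 CPM in MB and 30.8 and 60.8 CPM in MT. The groups did not overlap, but the ratio between the 2 libraries of each group was about as large as that between the nearest libraries of different groups. Its log2FC of -1.83 (SE 0.52, edgeR adjusted p = 0.0346) passed the threshold. Without MT replicate 1 the adjusted p was 0.312 (log2FC -1.47), and without MB replicate 1 it was 0.0860 (log2FC -1.28), so the call of Itga3 rested on these libraries.

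Itga7, the muscle laminin receptor subunit (ENSMUSG00000025348, chr10:128933818-128958282, plus strand), had higher values in MT. There were 375 and 294 CPM in MB and 808 and 983 CPM in MT. Both MT libraries lay above both MB libraries. The log2FC was 1.40 (SE 0.51), and the edgeR adjusted p of 0.0818 missed the threshold, whereas the Wald test of DESeq2 gave an adjusted p of 0.0150 for the same libraries. With the replicate number as a block the edgeR adjusted p was 0.196, and without a filter on low counts it was 0.197. Itga7 was therefore not called, and its direction was the same in all alternatives tried.

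The partner of these subunits, Itgb1 (chr8:128685654-128733200, plus strand), had 339 and 640 CPM in MB and 1859 and 1454 CPM in MT. The groups did not overlap, and MB replicate 1 was the lowest library. Its log2FC of 1.79 (SE 0.58) came with an edgeR adjusted p of 0.0568, which missed the threshold, and with a DESeq2 adjusted p of 0.0026. The edgeR adjusted p was 0.127 with the replicate number as a block and 0.131 without a filter on low counts. Itgb1 was therefore not called, and whether it passed depended on the test and its settings.

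Itgb5 (chr16:33829665-33949338, plus strand), the subunit of a vitronectin receptor, rose. It had 6.86 and 8.68 CPM in MB and 58.5 and 145 CPM in MT, so each MT library was well above both MB libraries while the MT libraries differed from each other. The log2FC was 3.68 (SE 0.55, edgeR adjusted p = 0.0017), and Itgb5 was called without any single library, with log2FC from 2.82 to 4.16.

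The alpha partner of Itgb5 was not called. Itgav (chr2:83724397-83806916, plus strand), the alpha subunit of vitronectin receptors, had 119 and 254 CPM in MB and 126 and 388 CPM in MT. The groups overlapped, since the spread between replicates in each group exceeded the distance between the groups, and Itgav was the only member whose ranges did. The log2FC was 0.45 (SE 0.57, edgeR adjusted p = 0.622), and its sign changed when MT replicate 2 or MB replicate 1 was left out.

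Itga5, the fibronectin receptor subunit (chr15:103344286-103366763, minus strand), had 187 and 135 CPM in MB and 290 and 204 CPM in MT. The lowest MT library was only slightly above the highest MB library. The log2FC of 0.61 (SE 0.47, edgeR adjusted p = 0.398) did not pass.

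The remaining 3 alpha subunits were near or under the limit of detection in MB and were counted in both MT libraries. Itga1, which pairs with beta1 to bind collagens and laminins, had 1 and 2 counts in the MB libraries and 161 and 84 counts in the MT libraries. In CPM these were 0.123 and 0.241 in MB and 11.99 and 10.7 in MT, so the MT libraries were close to each other after normalization. The ratio of CPM was 63.1, with a 95% counting interval from 21.3 to 308, and the edgeR adjusted p was 0.0022.

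Itga4, whose product binds VCAM1 and fibronectin and is known from the contact of myoblasts during myotube formation, had 2 and 0 counts in MB and 188 and 26 counts in MT. The normalized MT values were 14.0 and 3.31 CPM, with replicate 1 well above replicate 2. The ratio was 82.7 (95% counting interval 22.6 to 687, edgeR adjusted p = 0.0106), and without MT replicate 1 the adjusted p was 0.0538, which is no call.

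Itga9, whose product binds tenascin-C, osteopontin and VCAM1, had 0 and 1 counts in MB and 150 and 30 counts in MT. Its MT values were 11.2 and 3.82 CPM, again higher in replicate 1, and the ratio was 139 (95% counting interval 24.7 to 5525, edgeR adjusted p = 0.0061).

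Other quantities differed between the MT libraries together with these 3 genes. MT replicate 1 alone had counts for 3854 protein-coding genes, at a median of 3.23 and a 90th percentile of 18.2 counts per kb of exon, and in that library Itga1 had 8.66, Itga4 13.4 and Itga9 19.5 counts per kb. All 5 endothelial markers were at 0 in MT replicate 2 and summed to 16.8 CPM in replicate 1. The 5 immune markers summed to 17.2 CPM in MT replicate 1 and 2.93 CPM in replicate 2, where Ptprc, Adgre1 and Cd3e were at 0. Of the 5 fibroblast markers, 4 were tested and 3 were called higher in MT (Col1a1, Col3a1 and Dcn), beside 11.0% of all tested genes. Col1a1 with 8 and 4 counts in MB and Dcn with 0 and 2 could only come out higher. Pdgfra was not called, with 1.59 and 1.45 CPM in MB and 5.66 and 2.54 CPM in MT. The 5 markers summed to 473 and 234 CPM in MB and to 24032 and 14563 CPM in MT. Lum was at 0 in both MB libraries. Col3a1 held 470 and 232 CPM of the MB sums, and Col1a1 and Col3a1 held most of the MT sums. The 4 mural markers summed to 13.7 and 8.92 CPM in MB and to 121 and 211 CPM in MT. Pdgfrb alone held 105 and 210 CPM of the MT sums. Rgs5 had 2.70 and 4.22 CPM in MB and 10.3 and 0.127 CPM in MT and was not called. Myh11 and Cspg4 were at 2.98 CPM or less in MT. The part of these differences in the levels of Itga1, Itga4 and Itga9 was not tested.

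By ranges alone, 7 members had MT values above all MB values and 2 had MT values under all MB values, beside 32.9% and 29.2% of all tested genes. The strand used in counting is not given in the sources used here, so reads of overlapping genes may enter some values. Itga4 shares 1124 exonic bases with Cerkl and Itgav 634 with Gm13684, each on the opposite strand, Itga1 shares 685 with Gm49395 on the same strand, and Itga7 shares 9 with Mettl7b, whereas the exons of the other 6 members overlap no other gene in GENCODE M21.

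**Figure D2:**
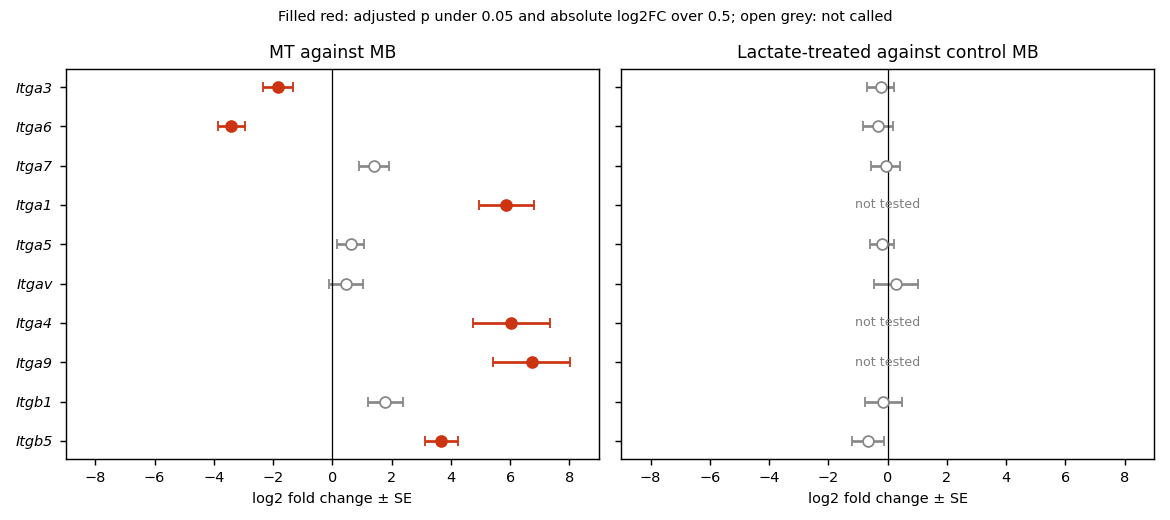
Log2 fold change (points) and its standard error (bars) of the 10 integrin genes in MT against MB, left, and lactate-treated against control MB, right, from edgeR; filled red points passed the threshold and open grey points did not. On the left 4 genes lie to the right and 2 to the left as filled points, with the values of Itga1, Itga4 and Itga9 depending on how edgeR treats counts near 0, and on the right the 7 genes tested lie between -0.66 and 0.28.

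The upstream sequence of the genes was inspected for E-boxes, the CANNTG motif bound by myogenic bHLH factors such as MYOD and myogenin. RefSeq start sites on GRCm38.p6 were available for 8 of the 10 members, as 9 windows of 250 bases before the start, and Itga6 and Itga7 had none. A CANNTG was found in 7 of the 9 windows, beside 66.2% of all 32851 windows. The form CAGCTG was found in the windows of Itga1, Itga4, Itga9 and Itgb5 and in none of the other 5 windows, beside 13.0% of all windows. These are the members called higher in MT, but the form was picked after the calls were known and 3 of the 4 could only come out higher, so the match is selected and was not tested. CAGCTG reads the same on both strands and is one of the CANNTG forms, and a match describes these letters and not a bound site. The 4 windows are shown because they share this motif. Each is given 5′ to 3′ on the strand of the gene, ends at the base before the start, and has its E-boxes in capitals.
Itga1, chr13:115101965-115102214, minus strand: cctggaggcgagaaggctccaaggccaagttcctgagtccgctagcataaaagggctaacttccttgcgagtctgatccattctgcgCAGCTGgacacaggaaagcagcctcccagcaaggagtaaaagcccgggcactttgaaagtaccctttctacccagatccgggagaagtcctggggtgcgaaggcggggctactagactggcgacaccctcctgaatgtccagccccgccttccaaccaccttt
Itga4, chr2:79255176-79255425, plus strand: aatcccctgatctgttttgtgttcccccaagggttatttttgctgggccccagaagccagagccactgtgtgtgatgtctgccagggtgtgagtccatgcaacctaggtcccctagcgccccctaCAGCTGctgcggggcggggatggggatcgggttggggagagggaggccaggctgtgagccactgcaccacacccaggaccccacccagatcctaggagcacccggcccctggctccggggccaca
Itga9, chr9:118711442-118711691, plus strand: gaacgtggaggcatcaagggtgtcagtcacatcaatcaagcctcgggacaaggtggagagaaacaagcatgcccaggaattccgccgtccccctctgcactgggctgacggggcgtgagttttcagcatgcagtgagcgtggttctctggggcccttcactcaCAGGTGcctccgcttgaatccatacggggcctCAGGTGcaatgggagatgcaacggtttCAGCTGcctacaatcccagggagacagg
Itgb5, chr16:33829415-33829664, plus strand: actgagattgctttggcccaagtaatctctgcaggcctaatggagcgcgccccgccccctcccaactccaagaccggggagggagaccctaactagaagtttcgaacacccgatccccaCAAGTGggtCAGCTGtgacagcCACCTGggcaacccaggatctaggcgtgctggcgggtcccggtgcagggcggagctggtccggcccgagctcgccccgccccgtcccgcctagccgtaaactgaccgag
The CAGCTG began 163 bases before the start in Itga1, 125 in Itga4, 28 in Itga9 and 122 in Itgb5. Itga9 and Itgb5 had 3 E-boxes each, and 12.2% of all windows had 3 or more. The RefSeq start used for Itga9 lies inside the GENCODE gene, which begins at base 118606690 of chromosome 9, so its window is not upstream of the whole gene. Itga3 lies on the minus strand and starts at base 95076801 of chromosome 11. Its window at 95069199-95069448 thus lies inside the gene, and its window at 95076715-95076964 overlaps the start of the gene. Of the other windows, Itga5 held CATCTG, the 2 windows of Itga3 held CAGGTG and CACATG, and those of Itgav and Itgb1 held no CANNTG.

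Levels were compared between genes per length, as RPKM over the exonic length of each gene. In MB, Itgb1 was highest with 120.0 ± 52.2 RPKM (SD, n = 2), followed by Itga7 with 41.3 ± 7.1, Itga5 with 32.7 ± 7.5, Itga3 with 27.6 ± 12.4, Itga6 with 21.6 ± 0.92 and Itgav with 17.3 ± 8.9 RPKM. Neighbours from Itga7 to Itgav overlapped in range, while Itga7 and Itga5 lay wholly above Itga6 and Itgav. With the longest transcript in place of all exons as length, Itga7 with 73.1 to 93.3 RPKM lay above the other alpha subunits, and Itga6 with 43.8 to 46.5 RPKM moved above Itga5 with 30.6 to 42.4, so the place of Itga6 in MB depends on the length used. Itgb5 was lower with 2.19 ± 0.36 RPKM, and Itga1, Itga4 and Itga9 were each under 0.01 RPKM on average.

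In MT the order was steeper. Itgb1 had 406 ± 70 RPKM (SD, n = 2), Itga7 111 ± 15 and Itga5 50.0 ± 12.3, and the ranges of these 3 did not overlap. Itgb5 with 28.6 ± 17.2 and Itgav with 23.9 ± 17.2 RPKM overlapped, and Itga3 with 8.02 ± 3.72 and Itga6 with 2.04 ± 0.28 RPKM were each separate from their neighbours. Itga9, Itga4 and Itga1 remained the lowest with 0.974, 0.619 and 0.609 RPKM and overlapped each other, so the genes with the highest ratios between MT and MB had the lowest levels in MT.

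The level in whole muscle was the third question. In GAS the replicates were close, with coefficients of variation in CPM from 1.70% for Itga7 to 27.7% for Itga1. Itgb1 had 170, 169 and 177 CPM and 42.1 ± 1.0 RPKM (SD, n = 3), the highest of the set. Itgb5 had 63.7, 60.6 and 75.3 CPM and was second per length with 18.7 ± 2.2 RPKM. Itga7 had 78.9, 77.4 and 80.1 CPM and 9.74 ± 0.17 RPKM, the highest mean of the alpha subunits, as in MT and in MB, where its range overlapped those of Itga5 and Itga3. With the longest transcript as length, Itga7 had 19.3 to 19.9 RPKM and Itgb5 18.5 to 22.9, so their order in GAS was then no longer clear.

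Itgav followed in GAS with 35.2, 33.2 and 33.9 CPM (3.17 ± 0.095 RPKM), and its range met none of its neighbours. Itga6 had 20.3, 20.0 and 18.2 CPM (2.16 ± 0.12 RPKM). Itga4 had 33.5, 27.2 and 24.4 CPM (2.03 ± 0.33 RPKM). Per length Itga6, Itga4, Itga9, Itga5 and Itga3 formed a group in which each neighbour overlapped the next. With the longest transcript as length, Itga6 had 4.23 to 4.70 RPKM and stood apart from Itga4 with 2.50 to 3.43, next to Itgav with 4.70 to 4.99.

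Itga9 had 16.2, 12.5 and 15.1 CPM in GAS (1.90 ± 0.25 RPKM), Itga5 7.01, 8.71 and 6.49 CPM (1.50 ± 0.24 RPKM) and Itga3 8.22, 5.16 and 6.28 CPM (1.15 ± 0.27 RPKM). Itga1 was lowest with 7.16, 6.99 and 11.1 CPM (0.453 ± 0.13 RPKM). All 10 genes were above the limit of detection in each GAS library, with at least 102 counts. Endothelial markers summed to between 134 and 157 CPM, mural markers to between 231 and 251 CPM, fibroblast markers to between 477 and 566 CPM and immune markers to between 16.2 and 17.5 CPM in GAS, and the part of these cells in the integrin levels was not tested.

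A share within a library does not depend on how libraries are scaled to each other. Of the summed RPKM of the 8 alpha subunits, Itga7 made up 30.3% and 28.3% in MB, 55.3% and 57.0% in MT, 28.8% and 31.2% in lactate-treated MB, and 42.4%, 44.5% and 45.4% in GAS. The MT shares were thus higher than all MB shares, with differences between replicates of at most a few percentage points, and those of GAS lay between. The 4 values of MT and MB are too few for an exact test to reach 0.05.

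Itga7, Itga6 and Itga3 together held a narrow range. Their summed share was 67.9% and 60.2% in MB, 59.3% and 63.0% in MT, 64.6% and 60.2% in lactate-treated MB, and 58.4%, 59.0% and 59.7% in GAS. The laminin receptor subunits were thus the larger part of the alpha subunit RNA in all 9 libraries, while Itga3 and Itga6 together took 37.5% and 31.9% of it in MB and 4.00% and 6.05% in MT.

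**Figure D3:**
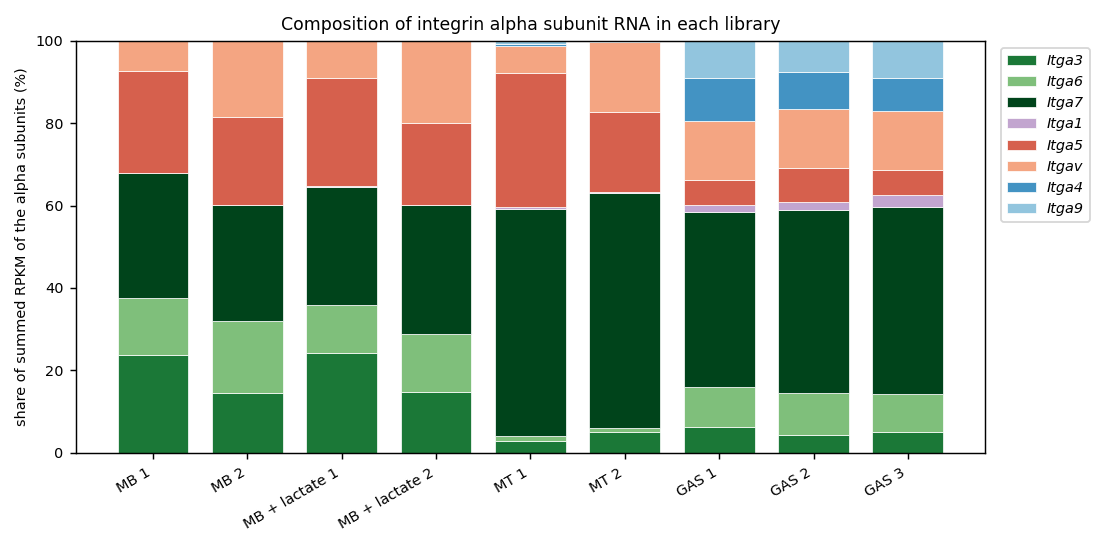
Share of each of the 8 integrin alpha subunits in their summed RPKM (stacked bars, percent) in each of the 9 libraries, with the laminin receptor subunits in green at the bottom. The green part lies between 58.4% and 67.9% in every library, and Itga7 fills 55.3% and 57.0% of the bars of MT against 28.3% to 31.2% in MB with and without lactate.

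The ratio of Itga7 to Itga6 showed the change within the laminin receptors directly. It was 2.21 and 1.63 in MB, 54.3 and 54.2 in MT, 2.47 and 2.22 in lactate-treated MB, and 4.34, 4.32 and 4.90 in GAS. The MT replicates were nearly equal in this ratio although they differed in other members. By this ratio GAS, where Itga6 had a share of 9.26 to 10.3%, was nearer to MB than to MT. The level of Itga6 was 2.16 RPKM in GAS, 2.04 in MT and 21.6 in MB, and that of Itga7 was 9.74, 111 and 41.3. GAS was normalized separately, and protocol and sample differ together and cannot be told apart.

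In the alpha subunits outside the laminin group, Itga5 took 24.9% and 21.4% in MB, 32.5% and 19.4% in MT and 6.04 to 8.21% in GAS, and Itgav took 7.25% and 18.4% in MB, 6.51% and 16.9% in MT and 14.2 to 14.5% in GAS. For both genes the shares of MT overlapped those of MB. Itga4 and Itga9 together with Itga1 made up 1.71% or less of the summed RPKM of the 8 alpha subunits in MT. In GAS, Itga4 took 8.03 to 10.4%, Itga9 7.57 to 9.15% and Itga1 1.67 to 2.74%.

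The beta subunits were also set against the alpha subunits. Itgb1 amounted to 54.5% and 122% of the summed alpha RPKM in MB, to 252% and 167% in MT, to 64.9% and 93.3% in lactate-treated MB and to 181%, 192% and 199% in GAS. With the longest transcript as length these shares were lower, with 37.2% and 80.6% in MB, 163% and 104% in MT, 45.1% and 61.4% in lactate-treated MB and 114% to 124% in GAS, and those of MT still lay above those of MB. Itgb5 made up 2.27% and 1.53% of the 2 beta subunits in MB, 3.49% and 10.3% in MT and 30.1%, 29.2% and 32.9% in GAS. GAS was therefore the sample with the most Itgb5 for its Itgb1, with no overlap with the cultured libraries, though protocol and sample differ together here and cannot be told apart.

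**Figure D4:**
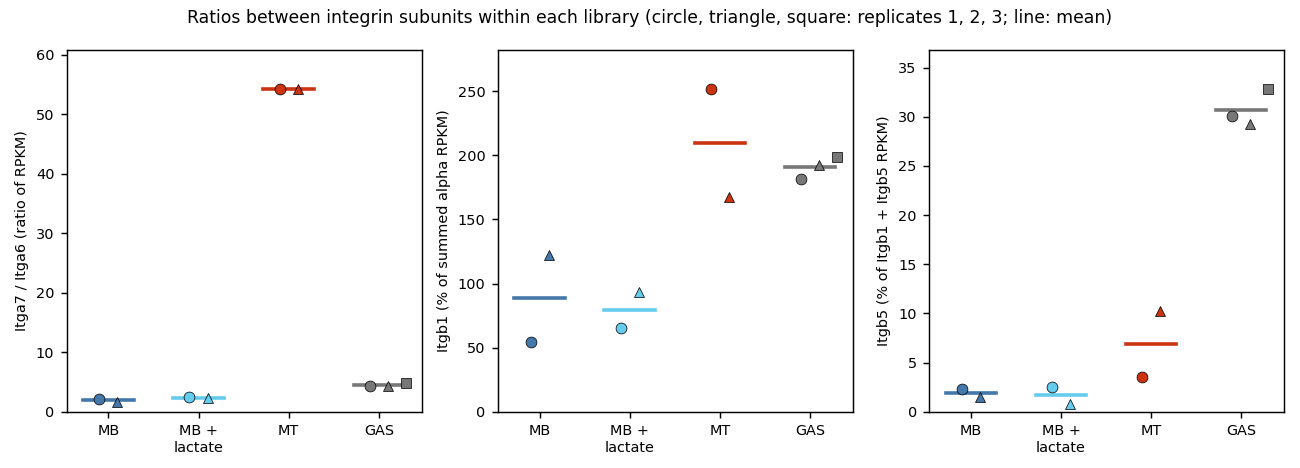
Ratio of Itga7 to Itga6 RPKM (left), Itgb1 as percent of the summed RPKM of 8 alpha subunits (middle) and Itgb5 as percent of Itgb1 plus Itgb5 (right) in each library, with group means as lines and linear axes from 0. The ratio on the left is 54.3 and 54.2 in MT and at most 4.90 in the other libraries, and the share on the right is at least 29.2% in GAS and at most 10.3% in the cultured cells.

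Lactate treatment was compared with control MB to ask whether added lactate moved the set towards the pattern of MT. None of the 7 members tested was called, at an adjusted p under 0.05 or at a nominal p under 0.01, beside 0% of the 11804 genes tested by either rule. At an unadjusted p under 0.05 edgeR gave 5 genes in all and 0 members, and DESeq2 called 0 genes after adjustment. Without any change a share of about 0.05 of the genes should pass that p, so this fit called far too few. The replicate differences of treated and control MB correlated at 0.71 over genes, and the main fit, which had no block, counts them as error. No conclusion is therefore drawn from the lack of calls. This comparison shares its control libraries with that of MT and MB.

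Itga6 had 97.9 and 217 CPM with lactate, and its control libraries of 189 and 201 CPM lay between these values (log2FC -0.32, SE 0.50). Itga7 had 217 and 433 CPM with lactate, again on both sides of the controls (log2FC -0.061, SE 0.49). In both genes the treated libraries differed from each other by more than the group means did.

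Itga3 had 129 and 145 CPM with lactate (log2FC -0.23, SE 0.45) and Itga5 121 and 168 CPM (log2FC -0.19, SE 0.41). Itgav had 90.5 and 367 CPM (log2FC 0.28, SE 0.74) and Itgb1 247 and 652 CPM (log2FC -0.14, SE 0.62). For all 4 genes the ranges of treated and control libraries overlapped.

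Among the 7 tested members, the ranges of treated and control libraries were apart only for Itgb5. The share of all genes with ranges apart was not determined for this comparison, so this separation is not read as a result. Itgb5 had 5.62 and 4.44 CPM with lactate, under both controls of 6.86 and 8.68 CPM, from 32 and 25 counts (log2FC -0.66, SE 0.53), and it was not called, with the edgeR adjusted p of all 7 members at 1.00. Itga1 with 2 and 2 counts, Itga4 with 4 and 1 and Itga9 with 0 and 0 counts under lactate were removed by the filter for low values. The CPM of Itga1 with lactate also lay above both controls, from these few counts. For the 3 genes the filter removed, the comparison with MT is by level only. The highest values of Itga1, Itga4 and Itga9 with lactate, 0.356, 0.703 and 0 CPM, lay under the lowest MT values of 10.7, 3.31 and 3.82 CPM. No rise to the level of MT was thus seen, while smaller changes were not detectable at this depth. Fitted without the filter, none of the 3 was called (edgeR adjusted p = 1.00 each). In the main fit of the 7 tested members, which had no block, the standard errors lay between 0.41 and 0.74 on the log2 scale. Changes of the size of a doubling were not well resolved there either. With the replicate number as a block, the standard errors lay between 0.24 (Itgb1) and 0.39 (Itgb5). The log2FC then ran from -0.66 (Itgb5) to 0.039 (Itgav), and no member was called. The labels do not say that equal replicate numbers mark a shared culture.

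The library number went along with the values of some members. In 3 of the 7 tested members, Itga6, Itgav and Itgb1, replicate 1 was lower than replicate 2 in both lactate-treated and control MB. In the other 4, Itga3, Itga5, Itga7 and Itgb5, the direction differed between the groups. Over the 11804 genes tested, the replicate differences of the groups correlated at 0.71. Replicate 1 was also the library with the high share of CT010467.1 in both groups. The part of that share in the levels of these genes was not tested, and leaving out the ribosomal RNA genes brought no member past the threshold.

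Of 17 other integrin genes, 9 were tested in MT against MB, and 7 were called higher and 0 lower, beside 11.0% and 6.86% of all tested genes. Of the 7, Itga11 and Itgam had at most 3 counts over the MB libraries and could only come out higher. Itga2b, with 13 and 2 counts in MB, and Itga8, with 13 and 6, passed the filter for low values only with their MT counts. The fibroblast markers summed to 473 and 234 CPM in MB and to 24032 and 14563 CPM in MT, for the most part Col1a1 and Col3a1. The immune markers summed to 17.2 CPM in MT replicate 1 and 2.93 CPM in replicate 2. Both lists are set beside Itga11 and Itgam as well, and their part was not tested. Among the alpha subunits Itga11, a collagen receptor of fibroblasts and mesenchymal cells, had 0 and 1 counts in MB and 64.6 and 52.0 CPM in MT (ratio 986, 95% counting interval 177 to 38982). Itgam, the leukocyte subunit alpha M, had 4.10 and 3.05 CPM in MT (ratio 20.4, 6.72 to 101), Itga2b, a platelet subunit, rose with a log2FC of 3.61 (SE 1.00) and Itga8 with 3.27 (SE 0.78).

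Of the beta subunits that pair with alpha v, Itgb6 rose from 1.59 and 2.65 CPM in MB to 43.6 and 63.5 CPM in MT (log2FC 4.65, SE 0.58), Itgb3 from 3.19 and 3.50 CPM to 45.6 and 44.9 CPM (log2FC 3.76, SE 0.54) and Itgb8 from 2.94 and 4.94 CPM to 26.9 and 14.2 CPM (log2FC 2.42, SE 0.63). With Itgb5, 4 beta subunits known as partners of alpha v were thus called higher while Itgav itself was not, and the difference between them was not tested. Itgb4 and Itgb7 were tested and not called. In GAS, Itgb6 had 14.0 to 22.8 CPM, Itgb3 1.71 to 2.48 CPM and Itgb8 0.253 to 0.675 CPM, the last near the limit of detection.

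Of 52 genes of integrin adhesion, 49 were tested, 10 were called higher and 1 lower, beside the 11.0% and 6.86% of all tested genes that also stand beside each role below, and their median log2FC of -0.021 was close to the 0.072 of all tested genes. Among 21 tested activators and adaptors, 3 were called higher, of which Lims2 and Itgb1bp2 passed the filter for low values only with their MT counts. Lims2, without counts in MB, could only come out higher. Itgb1bp2, which encodes the muscle protein melusin that binds the beta1 tail, had 0.858 and 1.81 CPM in MB and 77.7 and 149.7 CPM in MT (log2FC 6.39, SE 0.63). Tns1, a tensin that links beta tails to actin, had 6.99 and 4.22 CPM in MB and 102 and 185 CPM in MT (log2FC 4.64, SE 0.56). Lims2, which encodes the ILK partner PINCH2, had no counts in MB and was at least 42.8-fold higher in MT, taking 3 counts over the MB libraries as the limit. The general adaptors talin (Tln1, log2FC -1.07, SE 0.61) and vinculin (Vcl, log2FC -0.021, SE 0.55) were not called, and these 2 were chosen after their values were seen.

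Of 7 tested kinases and docking proteins, Src was called lower, with 91.4 and 29.6 CPM in MB and 16.8 and 11.4 CPM in MT (log2FC -2.12, SE 0.63, edgeR adjusted p = 0.0401). Of 7 tested tetraspanins and lateral partners, 2 were called higher, of which Cav3 passed the filter for low values only with its MT counts. Cav3, the caveolin of muscle, had 1.47 and 0.603 CPM in MB and 136 and 217 CPM in MT (log2FC 7.36, SE 0.66), and the tetraspanin Cd82 had 80.6 and 49.4 CPM in MB and 176 and 341 CPM in MT (log2FC 1.95, SE 0.50).

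Of 14 tested ligand genes, 5 were called higher and 0 lower, and 4 of the 5, Lama4, Lama1, Vtn and Emilin1, had at most 3 counts over the MB libraries and could only come out higher. The laminin chain genes Lama4 and Lama1 and the vitronectin gene Vtn had no counts in MB and were at least 187-fold, 38.9-fold and 29.1-fold higher in MT against 3 counts over the MB libraries. Emilin1, whose product is a ligand of alpha4 beta1 and alpha9 beta1, had 3 counts in MB and 317 in MT (ratio 81.7, 95% counting interval 27.7 to 398), and the laminin chain gene Lamb2 rose with a log2FC of 1.59 (SE 0.48). Under lactate, 0 of 6 tested other integrins and 0 of 44 tested adhesion genes were called.

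For Itga7 and Itga5, the genes with the most similar profile were looked up by the Pearson correlation of log2(CPM + 1) over the 6 cultured libraries, among 8877 genes with a mean of at least 10 CPM. For Itga7 these were Npepps (r = 0.995), Dip2c (0.992), Col6a3 (0.990), Cdh13 (0.989) and Serinc5 (0.988), and for Itga5 they were Tbl2 (0.993), Vgll4 (0.982), Homez (0.977), Ncstn (0.975) and Tmed4 (0.968). The 6 libraries share the separation of MT from MB and 2 control libraries, so the values only describe likeness across these libraries.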

How the data were processed

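Counts per gene of 9 RNA-Seq libraries were used. The authors trimmed the reads with Trim Galore 0.6.6, aligned them to mm10 with HISAT2 2.2.1 and counted them with featureCounts (Subread 2.0.1), and the deposited values are raw counts with no normalization. The annotation release and the handling of strand are not given in the sources used here. Versions are those of the submitters' processing notes.

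GENCODE M21 on GRCm38 (mm10) gave symbols, positions and the lengths of exons, and it holds 45229 of the 46078 genes of the cultured cells and 36429 of the 38293 of GAS. CPM and RPKM used edgeR's TMM normalization, computed for the cultured cells and for GAS separately, and RPKM divides by the union of exons. The tests of MT against MB and of lactate-treated against control MB used edgeR 4.0.16 (filterByExpr, TMM, quasi-likelihood test, Benjamini-Hochberg adjustment over all genes tested) in R 4.3.3, each on its own 4 libraries. The script was tested on simulated data. A gene with 3 counts or fewer over the MB libraries is given by its ratio of CPM with an exact 95% counting interval, or as a lower bound against 3 counts where it had none, and these cover counting error only.

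Alternatives were RLE size factors, DESeq2 1.42.0, other filters on low counts, the replicate number as a block, all 6 cultured libraries in one fit, ribosomal RNA genes left out, other thresholds, each library left out in turn, and the length of the longest transcript. Python 3.11.15 with pandas 2.3.3 and matplotlib 3.10.9 was used for tables and figures. The members, the gene lists and the tests were chosen with earlier results of these data known. All members were named, and of the other integrins and adhesion genes those called in MT against MB, up to 4 per role and direction with the largest change. Upstream sequences are those of RefSeq on GRCm38.p6. Protein sequences were not used here.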

Additional observations from a re-analysis of the deposited data

How the results depend on the processing

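Over the alternatives, 108 of 117 single log2FC values of the members in MT against MB kept their direction and their side of the threshold. Itga3 lost its call without MT replicate 1 or MB replicate 1 and Itga4 without MT replicate 1, Itga7 and Itgb1 passed with DESeq2 and with a crossed block, and Itgav was reversed without MT replicate 2 (-0.63) and without MB replicate 1 (-0.035), its range over single libraries left out being -0.63 to 1.02. With at least 10 counts in every library 1 member was called higher, since Itga1, Itga4 and Itga9 were not tested, and 766 of all genes were. Leaving out 1 library at a time gave 1 to 2 members lower, 962 to 4118 genes higher and 270 to 1570 lower, with 270 lower without MT replicate 1, 4118 higher without MT replicate 2 and 1570 lower without MB replicate 2. The lone library left in a group is there assumed to vary like the other group. DESeq2 called 2 adhesion genes lower. With a replicate block 4 members were higher and 2 lower, and over all genes 1447 and 824. The labels do not say that equal replicate numbers mark a shared culture, and the replicate differences of MT and MB correlated at -0.12 over genes, those of lactate-treated and control MB at 0.71, so the block rests on a number alone. A crossed pairing, chosen after seeing the data, gave 6 members higher and 2 lower, and 1192 and 867 genes.

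Under lactate no member was called in any alternative run. Over all genes, leaving out libraries gave 0 to 2 genes higher after adjustment, and at the nominal p 1 to 176 higher and 0 to 1 lower, with 2 after adjustment without MB replicate 1 and 176 without MB replicate 2. At the nominal p the replicate block gave 7 higher and 6 lower, DESeq2 1 higher, no filter on low counts 1 higher, and a p under 0.05 gave 2 higher and 3 lower. With single libraries left out the log2FC under lactate ranged from -0.62 to 0.40 for Itga3, -0.49 to 0.14 for Itga5, -1.06 to 0.18 for Itga6, -0.69 to 0.39 for Itga7, -1.12 to 0.99 for Itgav and -1.06 to 0.43 for Itgb1, so the sign of all 6 changed with the library left out. The cause was not tested. With the longest transcript as length the share of Itga7 among alpha subunits was 37.0% in MB, 67.2% in MT, 38.2% in lactate-treated MB and 52.0% in GAS, since its union of exons is 8092 bases and its longest transcript 4020, and the RPKM of 6 of 10 members in GAS moved by more than 1 SD.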
